A study of Mus musculus with 6 samples.

Results

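Polycomb group genes were followed in ventricles of tetraploid chimeric mouse embryos with knockdown of the long non-coding RNA Tbx5ua and in their wildtype counterparts. The members were 10 named genes, Ezh1, Ezh2, Eed, Suz12, Jarid2, Rbbp4, Ring1, Rnf2, Bmi1 and Cbx2, chosen by their symbol in the deposited table, and all 10 were present among the 23284 genes listed there. None of the members differed by 1.5-fold or more between the groups, a limit that 3.66% of all genes at 1 FPKM or above passed. At so low a share, a count of 0 among 10 genes does not set the members apart. The difference closest to that limit was that of Ring1, whose group value was 2.74 FPKM in wildtype (WT) and 3.92 FPKM in knockdown (KD) ventricles.

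The WT group held heart ventricles of 3 C57BL/6 embryos at E9.5 derived from wildtype ES cells. The KD group held ventricles of 3 embryos of the same strain and stage derived from ES cells of genotype Tbx5ua -/-, in which polyadenylation signals had been inserted into both alleles so that its transcription ends early. In tetraploid complementation the embryo proper comes from the injected ES cells, and the KD ES cells were grown from single colonies. Which line each embryo came from is not given in the sources used here. RNA was amplified with the Smart-Seq2 protocol before single-end sequencing. The table gives 1 FPKM value per gene for each group (fragments per kilobase of transcript, scaled to the mapped fragments of the library) and no value for a single embryo. For that reason no SD, test or p-value stands beside any difference here, and none of the differences has a replicate check. Read counts were not given, so the depth of the libraries is unknown. In bulk ventricle RNA, fewer cells of a type and less RNA per cell cannot be told apart. Tbx5ua itself was not analysed here, so the targeted gene does not check the group labels.

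Polycomb proteins keep developmental genes silent by modifying histones. Polycomb repressive complex 2 (PRC2) methylates histone H3 to give H3K27me3, through its catalytic subunit EZH2 or EZH1 together with EED, SUZ12 and RBBP4 or RBBP7. Polycomb repressive complex 1 (PRC1) ubiquitinates histone H2A through RING1 or RNF2 (RING1B) paired with a PCGF protein such as BMI1, and its CBX subunits read H3K27me3. In the developing mouse heart, loss of Ezh2 or of Jarid2, which encodes a protein that helps PRC2 bind chromatin, is known to disturb ventricular wall growth and septation.

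Differences are given as KD minus WT on the scale of log2(FPKM + 1), and a gene was counted as past the limit at 1.5-fold on that scale. Counting was limited to the 11606 genes that reached 1 FPKM in WT, KD or both, of which 425 or 3.66% were past it, 2.2% higher and 1.46% lower in KD. Of the 10 members, 0 were past it in either direction. The members had a median log2 difference of -0.06, beside 0.00 for all 11606 genes. In KD ventricles 7 members were lower and 3 higher, where 49.1% of all genes were lower and 50.9% higher. With the median of genes of like GC content subtracted, an alternative chosen after seeing the data, the members' median was -0.02, with 6 lower and 4 higher. The log2 differences of the members ran from -0.17 for Ezh2 to 0.40 for Ring1.

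The members spanned a wide range of levels per transcript length. Rbbp4, the highest, was 24.2 times as high as Ring1, the lowest, in WT, and 22.5 times as high as Ezh1, the lowest in KD. The order from high to low in WT was Rbbp4, Rnf2, Eed, Ezh2, Suz12, Cbx2, Jarid2, Bmi1, Ezh1 and Ring1. In KD it was the same for the first 7 genes, with Ring1 above Bmi1 and Ezh1. Since the spread between embryos is unknown, whether neighbours in this order differ beyond it cannot be said. Gaps between neighbours were small for Suz12, Cbx2 and Jarid2, all between 9.46 and 11.1 FPKM in both groups.

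**Figure D1:**
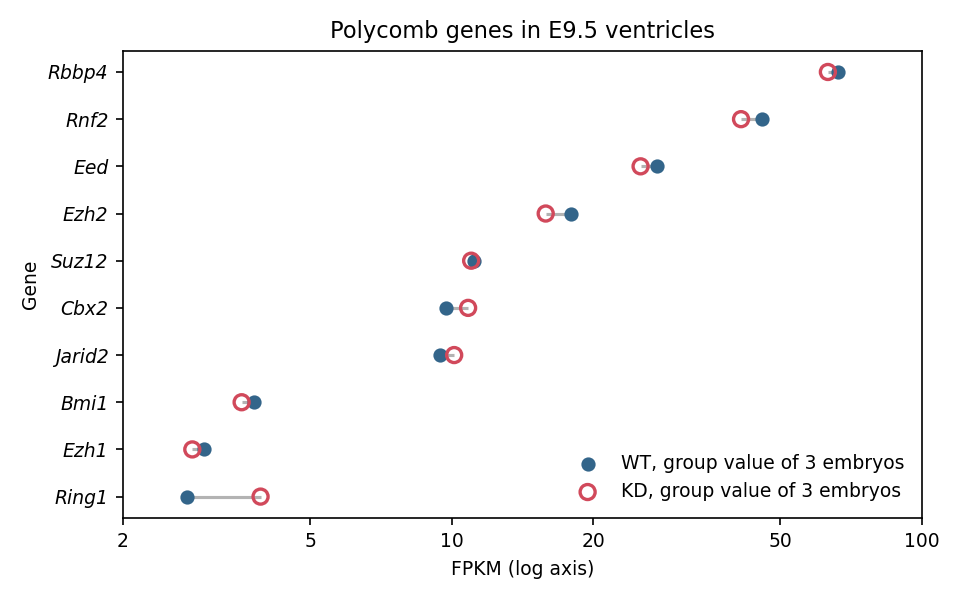
Group values of the 10 polycomb genes in FPKM on a log axis, with filled points for WT and open circles for KD, each a single value for 3 embryos with no error available. Circles lie close to their points for 9 genes, and the widest gap is that of Ring1 at 2.74 in WT and 3.92 in KD.

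The PRC2 core genes were lower in KD by small amounts. Ezh2, the catalytic subunit of dividing cells, had 18.0 FPKM in WT against 15.9 in KD, a change of -11.9% and a log2 difference of -0.17. It lies on the minus strand of chromosome 6 from 47530274 to 47595030 (GRCm38, the mm10 build of the table). Eed, whose protein binds H3K27me3 and stimulates the enzyme, had 27.3 FPKM in WT against 25.2 in KD, a log2 difference of -0.11. Rbbp4, which encodes a histone-binding protein shared with other chromatin complexes, had 66.2 FPKM in WT against 63.1 in KD, a log2 difference of -0.07. Suz12, the scaffold subunit, differed least of all members, with 11.1 FPKM in WT against 11.003 in KD and a log2 difference of -0.02. Ezh1, the catalytic paralog known for its role in cells that have stopped dividing, was low in both groups, with 2.97 FPKM in WT against 2.81 in KD and a log2 difference of -0.06. The sixth core gene, Rbbp7, is no member and was the highest of the core, with 336 FPKM in WT against 329 in KD. Its listed locus on the X chromosome, from 162407200 to 163352564, is far longer than that of Rbbp4. What the Rbbp7 value covers was not checked. All 6 core genes were thus lower in KD, with log2 differences from -0.17 to -0.02, each smaller than the 1.5-fold limit of 0.58 on that scale. With the median of genes of like GC content subtracted, Suz12 was at 0.05 and Rbbp7 at -0.00054, so that 5 of 6 were lower.

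Transcripts of the proliferative catalytic subunit outnumbered those of its paralog in both groups. Ezh2 was 6.05 times as high as Ezh1 in WT and 5.65 times in KD, so that Ezh2 held 85.8% and 85.0% of the summed EZH level. Eed was 2.45 times as high as Suz12 in WT and 2.29 times in KD, and Ezh2 was 1.62 and 1.44 times as high as Suz12. These are ratios of transcript levels and say nothing of the proteins.

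The promoters of the paralogs Ezh2 and Ezh1 are shown because these genes encode alternative catalytic subunits and differ in level in both groups. The sequences are the 250 bases before the RefSeq transcript start on GRCm38.p6, read 5′ to 3′ on the gene's own strand, with capitals at the letters CCAAT or ATTGG, the core bound by NF-Y. The Ezh2 stretch is chr6:47595031-47595280 and the Ezh1 stretch is chr11:101226464-101226713, both on the minus strand.
Ezh2: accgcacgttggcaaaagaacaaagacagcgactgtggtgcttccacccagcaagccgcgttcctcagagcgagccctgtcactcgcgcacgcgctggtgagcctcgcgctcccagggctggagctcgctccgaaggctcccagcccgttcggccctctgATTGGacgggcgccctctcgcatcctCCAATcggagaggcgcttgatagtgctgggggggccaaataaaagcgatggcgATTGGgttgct
Ezh1: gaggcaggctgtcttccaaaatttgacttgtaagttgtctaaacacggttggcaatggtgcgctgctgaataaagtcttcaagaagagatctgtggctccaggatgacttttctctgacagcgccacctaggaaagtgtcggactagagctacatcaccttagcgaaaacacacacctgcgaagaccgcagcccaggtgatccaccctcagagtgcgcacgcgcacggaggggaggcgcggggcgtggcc
The Ezh2 stretch holds CCAAT cores at 3 places, starting 90, 64 and 11 bases before the start site, and the Ezh1 stretch holds none. CCAAT cores were also found in windows of Rbbp4, Eed, Suz12 and Jarid2, so that 5 of the 9 members with a window held them. Of 32851 RefSeq promoter windows of 300 bases (250 before to 50 after the start), 37.4% hold CCAAT on either strand. Just after the start of Ezh2, beginning at base 4, lies TTTGGCGC, an E2F-type site of the kind found in genes of DNA replication. Only TTTCGCGC and TTTGGCGC were searched for E2F, on both strands, and 0.813% of all windows hold either. The site, in capitals, lies in chr6:47595009-47595038.
Ezh2 E2F-type site: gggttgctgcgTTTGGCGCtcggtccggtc
No other member window holds these 8 letters. A match describes the sequence and does not show binding.

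Cell cycle genes were, like the PRC2 core, mostly lower in KD. Of 10 genes listed for the cell cycle, 9 were lower in KD, with a median log2 difference of -0.14 and 0 past 1.5-fold. Mki67, a marker of dividing cells, had 11.9 FPKM in WT against 10.1 in KD, and Mcm2, part of the replicative helicase, had 107 and 95.6 FPKM. E2f1, a transcription factor of the entry into S phase, was the exception, with 2.86 FPKM in WT against 3.64 in KD. The part of cell cycle genes in the values of the PRC2 core was not tested.

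Among accessory subunits of PRC2 the values went both ways. Jarid2, on the plus strand of chromosome 13 from 44730774 to 44921643, had 9.46 FPKM in WT against 10.1 in KD, a log2 difference of 0.09. Of the 7 accessory genes listed, 5 were higher and 2 lower in KD, and 0 were past 1.5-fold. The highest, Mtf2, which encodes a Polycomb-like protein that brings PRC2 to CpG islands, had 24.4 FPKM in WT against 19.2 in KD, a log2 difference of -0.33. Its relative Phf1 went the other way, from 3.08 FPKM in WT to 4.22 FPKM in KD, a log2 difference of 0.35. The third Polycomb-like gene, Phf19, was the lowest of the group, with 0.903 FPKM in WT against 1.23 in KD. Epop, listed under its older symbol E130012A19Rik, had 1.196 FPKM in WT against 2.07 in KD, a log2 difference of 0.48. Aebp2 had 2.95 FPKM in WT against 3.05 in KD, and Lcor had 1.66 and 1.27 FPKM. None of these differences was tested.

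**Figure D2:**
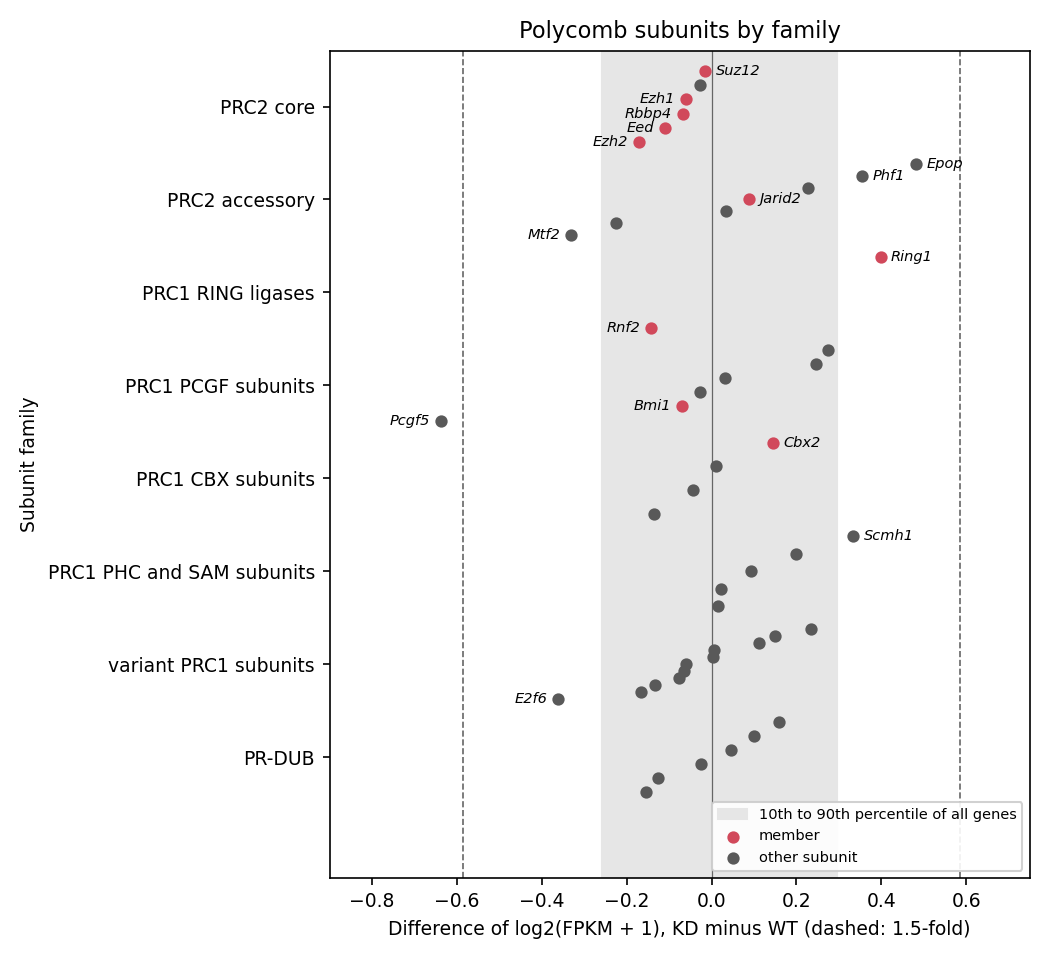
Differences of log2(FPKM + 1), KD minus WT, for the 47 polycomb subunits that reached 1 FPKM in WT or KD, by family, with members in red and other subunits in grey. The shaded band runs from the 10th to the 90th percentile of all genes, from -0.26 to 0.29. Dashed lines mark 1.5-fold, and only Pcgf5 lies beyond them, where 3.66% of all genes that reached 1 FPKM do.

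Transcripts of the RING ligase genes of PRC1 were mostly those of Rnf2. Rnf2, on the minus strand of chromosome 1 from 151469406 to 151500823, encodes the main H2A ubiquitin ligase and had 45.7 FPKM in WT against 41.3 in KD, a change of -9.65% and a log2 difference of -0.14. Ring1, its paralog, on the minus strand of chromosome 17 from 34020792 to 34024680, had 2.74 FPKM in WT against 3.92 in KD, a change of 43.4%. The log2 difference of Ring1 was 0.40, and 0.52 with no pseudocount, since adding 1 FPKM understates the difference of a low gene. Rnf2 was 16.7 times as high as Ring1 in WT and 10.5 times in KD, and the share of Ring1 in the summed level of both was 5.65% in WT and 8.68% in KD. The sum itself was 48.4 FPKM in WT against 45.2 in KD. Ring1 was thus higher in KD and Rnf2 lower, with the rarer gene closest to the limit.

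Ring1 stood at the upper edge of genes with a like level. Of 3662 genes with a mean of 1 to 5 FPKM over both groups, the middle 80% had log2 differences from -0.32 to 0.38, and 5.24% were past 1.5-fold. Ring1 at 0.40 lay just above that range, while Ezh1 and Bmi1 lay within it. Among 3825 genes from 5 to 20 FPKM the middle 80% ran from -0.26 to 0.29, and Ezh2, Suz12, Jarid2 and Cbx2 lay within it. Among 2703 genes from 20 to 100 FPKM it ran from -0.21 to 0.21, and Eed, Rbbp4 and Rnf2 lay within it. A neighbour of Ring1 in the major histocompatibility region, H2-Ke6, 1353 bases beyond the end of Ring1 by coordinate, had 7.44 FPKM in WT against 11.3 in KD. H2-K1, 20459 bases before Ring1, had 1.35 FPKM in WT against 2.07 in KD. AA388235, on the same side and 35434 bases away, had 0.614 against 0.410 FPKM, and Mir219-1 was listed at 0 in both groups.

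**Figure D3:**
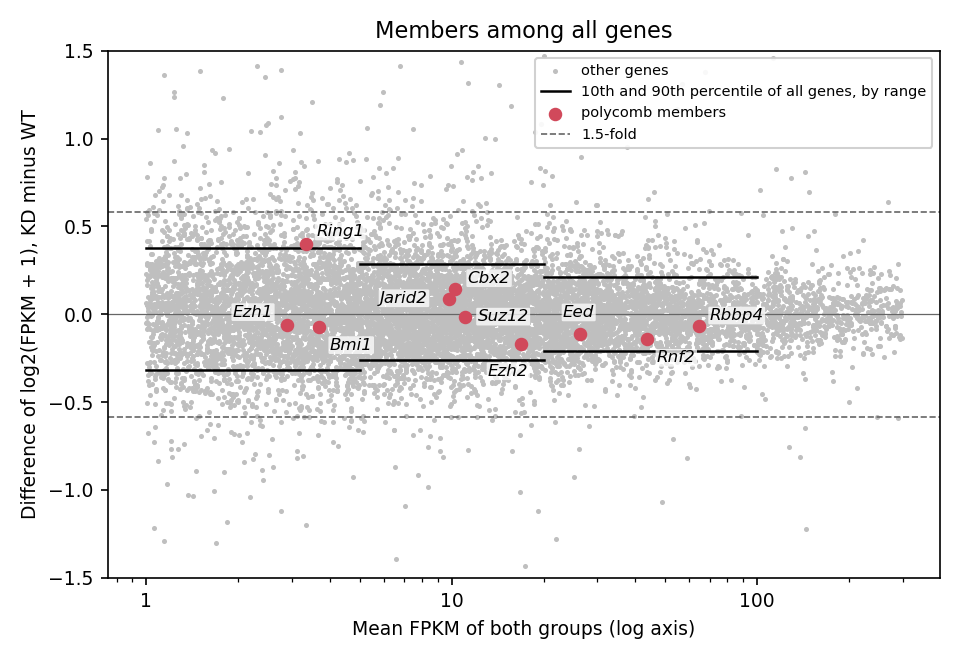
Difference of log2(FPKM + 1), KD minus WT, against the mean FPKM of both groups on a log axis, with members in red, other genes in grey, the 10th and 90th percentile of each of 3 level ranges as black lines and 1.5-fold as dashed lines. The plot holds 10831 genes, and 775 genes lie outside its axes. Ring1 sits just above the upper line of its range and the other 9 members between the lines.

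Bmi1 was a minor PCGF gene in these ventricles. Bmi1 (Pcgf4), on the plus strand of chromosome 2 from 18677018 to 18686629, encodes a PRC1 subunit known for silencing Cdkn2a and had 3.80 FPKM in WT against 3.58 in KD, a log2 difference of -0.07. It was the lowest of 6 PCGF genes in both groups, with 5.03% of their sum in WT and 5.39% in KD. Its closest paralog Pcgf2 (Mel18), which also forms canonical PRC1, was 1.79 times as high in WT and 1.86 times in KD, with 6.80 and 6.66 FPKM. The adjoining gene Commd3 ends 802 bases before Bmi1, and had 73.8 FPKM in WT against 88.1 in KD.

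The PCGF gene with the highest level, Pcgf5, was also the polycomb subunit with the largest log2(FPKM + 1) difference. Pcgf5, which forms a variant PRC1 without a CBX subunit, had 34.5 FPKM in WT against 21.8 in KD, a log2 difference of -0.64. It was the only value past 1.5-fold on that scale among 47 subunits that reached 1 FPKM. Of all genes that reached 1 FPKM 3.66% were past it, and of those from 20 to 100 FPKM 1.81%. A count of 1 among 47 thus does not set the subunits apart. Without the pseudocount Pcgf5 changed by -36.8%, and Epop, 72.9% higher, was past 1.5-fold too. With GC medians subtracted, as described with the GC values, Pcgf5 was at -0.58 and just within the limit. Its share of the PCGF sum was 45.6% in WT and 32.9% in KD. Its close paralog Pcgf3 had 15.7 FPKM in WT against 16.1 in KD. Pcgf1 and Pcgf6 were higher in KD, at 6.50 and 7.89 FPKM for Pcgf1 and 8.32 and 10.3 FPKM for Pcgf6. The PCGF sum was 75.7 FPKM in WT against 66.3 in KD. Bmi1, the only member among these genes, thus held a like share in both groups, while the gap between the sums ran in the direction of Pcgf5.

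**Figure D4:**
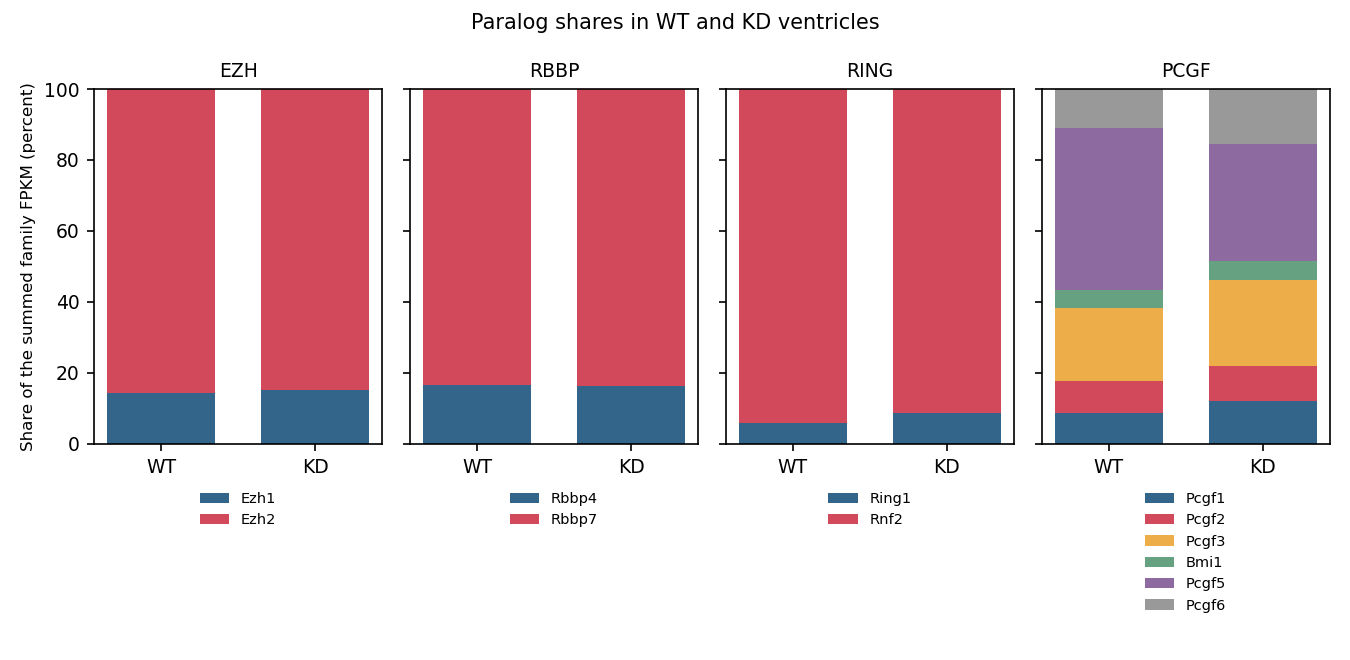
Share of each gene, in percent, of the summed FPKM of its paralog family in WT and KD, for the EZH, RBBP, RING and PCGF families, with bars starting at 0. Ezh2, Rbbp7 and Rnf2 hold most of their families in both groups, and the share of Pcgf5 is 45.6% in WT and 32.9% in KD.

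Cbx2 was higher than Cbx8, Cbx6 and Cbx7 in both groups. Cbx2, on the plus strand of chromosome 11 from 119023029 to 119031270, encodes a CBX protein that compacts chromatin and had 9.71 FPKM in WT against 10.8 in KD, a log2 difference of 0.14. Its neighbour Cbx8 starts 7166 bases after the end of Cbx2 and had 6.98 FPKM in WT against 6.74 in KD. Cbx2 was 1.39 times as high as Cbx8 in WT and 1.61 times in KD, with Cbx2 higher and Cbx8 lower in KD, both by less than 1.5-fold. On chromosome 15, Cbx6 had 3.46 FPKM in WT against 3.49 in KD, and Cbx7, the main CBX gene of embryonic stem cells, had 0.124 and 0.166 FPKM.

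Promoter letters shared by members of both complexes are shown next, as matches to motifs of factors tied to polycomb genes. Binding was not measured. RefSeq windows were at hand for 9 of the 10 members (Jarid2 has 2 windows), and Cbx2 had none. Each line gives 30 bases on the gene's strand with the motif in capitals. YY1, a zinc finger protein related to a fly polycomb recruiter, was searched as GCCATNTT and the MYC-type E-box as CACGTG, on both strands.
Bmi1 YY1-type site: gcggactccgaGCCATTTTggagccggtgt
Jarid2 YY1-type site: ccgtggccataGCCATTTTgtagtcaaggg
Bmi1 E-box: gaatgaggggagCACGTGacccggcggggg
Rbbp4 E-box: tagggtgtatgtCACGTGatctgcacgggc
The YY1-type sites lie in chr2:18676837-18676866 and chr13:44730749-44730778, and 6.05% of all windows hold those letters. The E-boxes lie in chr2:18676791-18676820 and chr4:129335577-129335606, and 7.15% of all windows hold CACGTG. The T-box letters GGTGTGA were in 0 of the 10 member windows and in 3.98% of all windows. The ETS letters CCGGAAG were also in 0 member windows, with 8.86% of all windows holding them. The letters TATAAA were in 1 member window, the downstream start of Jarid2, and in 13.6% of all windows. Member windows had a median of 27 CpG sites and 65.3% GC, beside 7 sites and 52.7% over all windows. The shares over all windows are thus not those of windows with a like GC content. The motifs were chosen with the member sequences in view.

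The other subunits of PRC1 and those of the enzyme that removes its mark were all within 1.5-fold on the log2(FPKM + 1) scale. Of 5 PHC and SAM subunits all were higher in KD, with 0 past 1.5-fold. The highest of them, Scmh1, had 9.80 FPKM in WT against 12.6 in KD, and the lowest, Scml2, had 1.02 and 1.32 FPKM. Phc1, Phc2 and Phc3, whose proteins let canonical PRC1 polymerize, had log2 differences from 0.02 to 0.09. Of 11 variant PRC1 subunits 5 were higher and 6 lower, with a median log2 difference of -0.06. The highest, Yaf2, had 42.2 FPKM in WT against 40.3 in KD, and the lowest, Auts2, had 2.28 and 2.54 FPKM. E2f6, a repressor that recruits the complex with Pcgf6, had 12.7 FPKM in WT against 9.69 in KD, a log2 difference of -0.36. In PR-DUB, which removes ubiquitin from H2A, 3 of the 6 genes that reached 1 FPKM were higher and 3 lower. Its catalytic subunit gene Bap1 was the highest, with 32.6 FPKM in WT against 29.8 in KD, and Asxl3 the lowest, with 0.113 and 0.193 FPKM.

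Across all 50 polycomb subunits listed, 47 reached 1 FPKM in WT or KD. Of these, 24 were higher and 23 lower in KD, with a median log2 difference of 0.00. The 37 that are no members had 21 higher and 16 lower and a median of 0.01. Outside this count, DNA-binding recruiters included Yy1 with 10.8 FPKM in WT against 10.5 in KD and Sfmbt2 with 0.948 and 0.506 FPKM. The enzymes that remove H3K27 methylation differed little. Kdm6b, the highest, had 9.47 FPKM in WT against 10.05 in KD, Kdm6a had 4.36 and 4.41 FPKM, and Uty, the lowest and on the Y chromosome, had 3.62 and 3.76 FPKM. Of the other sex-linked genes listed, Xist had 0.0128 and 0.0108 FPKM, Kdm5d 2.07 and 2.56 FPKM, and Ddx3y, past 1.5-fold, 3.80 and 7.23 FPKM.

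The subunits of other chromatin regulators are given for comparison. Of 20 subunits of the BAF remodelling complex 8 were higher and 12 lower, with a median log2 difference of -0.01. In that group 1 was past 1.5-fold, Smarcd2, with 4.22 FPKM in WT against 7.27 in KD. Of 8 DNA methylation enzymes that reached 1 FPKM, 3 were higher and 5 lower, with a median of -0.07 and 0 past 1.5-fold. The members had a median of -0.06 and 0 past it.

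Most genes known as polycomb targets were listed below 1 FPKM in both groups. Of 38 listed, 34 were below 1 FPKM in WT and KD alike, and 10 were listed at 0 in both. Of all 23284 genes, 5901 were at 0 in both groups and 11606 reached 1 FPKM in WT or KD. The share of targets at 0 in both groups was thus close to that of all genes. Cdkn2a, which encodes the cell cycle inhibitors p16INK4a and p19ARF and is a classic Bmi1 target, was listed at 0 in both groups. Isl1, a gene of heart progenitors, had 0.559 FPKM in WT against 0.361 in KD. All 9 Hox genes listed, central and posterior ones, were at 0 in WT, and 2 of them were at 0 in KD. The highest Hox value in KD was 0.289 FPKM, for Hoxd11, with 0.271 for Hoxd9 and 0.250 for Hoxd10. In all, 11 targets were at 0 in WT and above 0 in KD, and 2 were above 0 in WT and at 0 in KD. No such counts over all genes stand beside these, so they do not set the targets or the Hox genes apart. With depth unknown, values this low cannot be read as a difference.

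Only 4 of the targets reached 1 FPKM. Cdkn1c, an imprinted cell cycle inhibitor gene, had 428 FPKM in WT against 633 in KD, a log2 difference of 0.56, just under the limit. Cdkn1a, a target of p53 as well, had 23.6 FPKM in WT against 18.6 in KD. Msx1, a homeobox gene of cushion and outflow mesenchyme, had 5.60 FPKM in WT against 2.92 in KD, a log2 difference of -0.75, and was the only target past 1.5-fold. Hcn4, the pacemaker channel gene, had 3.57 FPKM in WT against 2.89 in KD. The expressed targets thus went both ways, 1 higher and 3 lower in KD.

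The difference between the groups moved with the GC content of transcripts, and the members followed the same direction. When the 10089 genes with a protein-coding transcript in GENCODE release M21 were split into 10 equal groups by GC, the median log2 difference went from -0.06 in the lowest to 0.08 in the highest. Over the members, Pearson's r between GC and log2 difference was 0.824 and Spearman's rho was 0.685 across 10 genes, and r was 0.682 without Ring1. Over all 10089 genes Spearman's rho was 0.189. These are descriptions across genes, which share the same 2 group values and are not replicates. Ring1, with 60.7% GC, and Cbx2, with 57.6%, had the highest GC of the members and the largest positive differences. Rnf2 had the lowest GC, 39.5%. With the median of each GC group subtracted, the difference of Ring1 was 0.31, that of Ezh2 was -0.15 and that of Suz12 turned from -0.02 to 0.05. Pcgf5 had 40.4% GC.

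**Figure D5:**
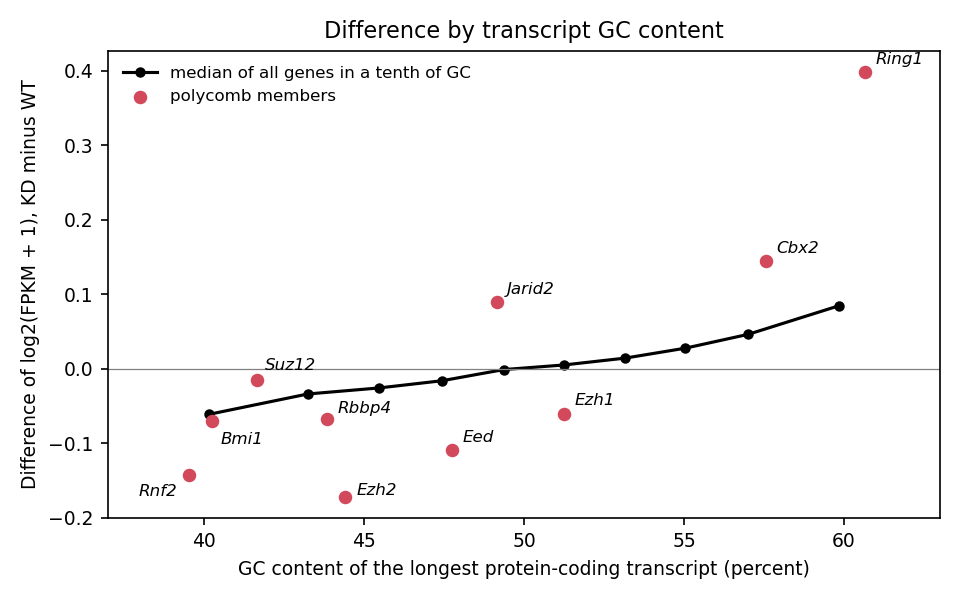
Difference of log2(FPKM + 1), KD minus WT, against the GC content of the longest protein-coding transcript in percent, with members in red and the median of all genes in each of 10 GC groups as a black line. The line climbs from -0.06 to 0.08, and of the members Ring1 lies furthest above it.

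The tissue matched its label by markers of heart muscle. Tnnt2, the cardiac troponin T gene, had 1842 FPKM in WT against 1807 in KD, and Nkx2-5 had 224 and 247 FPKM. Of 7 cardiomyocyte markers 0 were past 1.5-fold, as of 6 endocardial and 6 erythroid markers. The summed level of the 6 epicardial markers was 47.0 FPKM in WT against 95.9 in KD, with all 6 higher and 4 past 1.5-fold. Of 5 neural markers Sox2, Sox1, Neurog2 and Olig2 were listed at 0 in both groups, while Tubb3 had 12.2 FPKM in WT against 26.9 in KD. Alb and Fgb were listed at 0 in both groups, and Afp and Apoa1 reached 0.294 and 0.292 FPKM in KD. Of 3 pluripotency genes, Nanog had 1.599 FPKM in WT against 1.41 in KD, with Pou5f1 and Zfp42 below 1. The part of epicardial cells in the values of the members was not tested.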

How the data were processed

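RNA was sequenced by the authors in E9.5 ventricles, 3 embryos WT and 3 KD. The authors deposited 1 Cuffdiff table whose FPKM values are 1 per gene and group, the KD column under the name KO. The submitters' processing notes name TopHat, Bowtie2, Cuffdiff and mm10. Versions and the gene annotation are not given in the sources used here. The table's fold changes, test scores, p-values and q-values of the authors' own comparison were not used. It has 0 columns for single embryos, so the planned fit to single embryos could not be made, the spread and the depth are unknown, and no test was run.

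Computed here were differences of log2(FPKM + 1), counts past 1.5-fold over genes that reached 1 FPKM in WT or KD, and shares within families. Counting past 1.5-fold was tested on simulated data with changes well past that limit, which checks the code only. It does not cover changes near the limit or in genes of low level. Starts in the table had 1 added. Transcript GC came from GENCODE M21 and promoters from RefSeq (GRCm38.p6). Smart-Seq2 reads carry no strand, and gene models of Ezh2, Eed, Suz12, Rbbp4, Rnf2 and Jarid2 overlap another gene. The members and lists were chosen with earlier results of these data known. Named were all members, list genes past 1.5-fold, the highest and lowest gene of each polycomb family and paralogs of members. Others were chosen after their values were seen. Some list genes are not reported here. Alternatives were other pseudocounts, folds, filters, centring and scaling. Python 3.11.15, NumPy 2.4.6, pandas 2.3.3 and Matplotlib 3.10.9 were used.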

Additional observations from a re-analysis of the deposited data

How the results depend on the processing

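No paired analysis was possible because values of single embryos were not at hand, and for the same reason fits without a replicate were not run. The count of members past 1.5-fold stayed at 0 with pseudocounts of 0.1 and 0, with the median of all genes subtracted, with equal sums of FPKM, with GC medians subtracted and at 2-fold. At 1.2-fold it was 1, Ring1. The median of the members stayed between -0.09 and -0.02 under the scale alternatives, and was 0.00427 with all polycomb subunits in their place. The share of all genes past 1.5-fold was 2.05% with no filter and 2.17% for genes with a mean of 10 to 100 FPKM. Ring1 went to 0.50 with a pseudocount of 0.1 and 0.52 with 0. With GC medians subtracted Suz12 changed sign, Bmi1 went from -0.07 to -0.01, Rbbp4 from -0.07 to -0.03 and Rnf2 from -0.14 to -0.08. Most members' differences were too small for a limit on how far they may move to be of use. Below 1 FPKM the precision is not known, as read counts were not given.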
